A study of Homo sapiens with 6 samples.

Results

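The long non-coding RNA genes that carry small nucleolar RNAs (snoRNAs) in their introns were examined in RNA co-purified with CELF1 from melanoma cells. The 10 genes were SNHG1, SNHG5, SNHG6, SNHG7, SNHG8, SNHG12, SNHG15, SNHG16, SNHG29 and GAS5, out of 17649 genes with at least 1 listed bin in an exon. The genes were chosen from values of IP over input in these same lists, so the IP over input of a gene is given as a description and without a test. CELF1 was immunoprecipitated with an anti-CUGBP1 antibody (CUGBP1 is another name of CELF1) from SK-Mel-103 and UACC-62, both established human melanoma cell lines, grown without any treatment. Replicate 1 of SK-Mel-103 came first, then replicate 1 and then replicate 3 of UACC-62, and sets of 3 values are given in that order throughout. Each of these 3 IP samples had the input RNA of its own lysate beside it. There was thus a single SK-Mel-103 sample. Nothing in the labels says whether the UACC-62 replicates were separate cultures, so that tests measure only the spread between these samples, which may be technical. The labels describe the RNA as poly A+, and the extraction protocol describes removal of ribosomal RNA. Of 8 genes of the melanocyte lineage, 3, 6 and 6 had listed bins, with SOX10 and MITF in all 3 samples, while of 5 markers of other cell types KRT5, KRT14 and COL1A1 had none, PDGFRA had 2 bins in UACC-62 replicate 3, and PTPRC had 4 and 2 bins in the UACC-62 replicates. MITF, the main transcription factor of that lineage, had 2.13 CPM of listed input reads in the SK-Mel-103 sample, against 594 and 562 CPM in the UACC-62 replicates, whereas PMEL and TYRP1 were not listed in any sample.

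CELF1 is an RNA-binding protein known to recognise GU-rich stretches, often with UGU repeats, and to act on the splicing, decay and translation of its targets. In snoRNA host genes, the snoRNA is released from a spliced intron and guides the chemical modification of ribosomal RNA. The spliced exons of many such hosts have little coding capacity, start with a pyrimidine tract shared with ribosomal protein mRNAs, and are degraded while they are translated. GAS5, named after growth arrest, is also known as a decoy of the glucocorticoid receptor.

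The lists hold bins of 20 nt that passed the authors' peak caller, with no bin under 4 IP reads, and the 10 genes had 688 such bins in 1 sample or more. Bins were read as antisense to the transcript, and the opposite reading left 6 bins, with 8 to 15 IP reads per sample in place of at least 20698. The samples had 584, 367 and 388 of them, and 268 were listed in all 3. SK-Mel-103 thus had more bins of these genes than UACC-62. The whole lists held 816781, 780750 and 862731 bins, with SK-Mel-103 between the UACC-62 replicates. All IP reads in the bins of the 10 genes numbered 20698, 25395 and 51495, of which SNHG16 took 50.5%, 85.4% and 88.2%. SNHG5, SNHG6, SNHG7, SNHG8, SNHG12, SNHG29 and GAS5 each had more IP reads in SK-Mel-103 than in either UACC-62 replicate. SNHG15 and SNHG16 had fewer than in both, and SNHG1 lay between the replicates. These are raw counts from lists of unequal depth. In CPM of listed IP reads, SNHG1 had 167, 119 and 149, so SK-Mel-103 was above both replicates. The other genes kept their order.

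Heavily covered bins are shown as examples of the sequence that was read, and they need not hold most of the IP reads of a gene. For 9 genes, all but SNHG6, the bin with the most IP reads over the 3 samples was taken. The choice was among bins listed in all 3 samples and not covered by a single stretch that matched another locus. A match needed at least 40 nt at 95% identity. Such a bin can still lie between bins that match a copy, as that of SNHG16 does. All sequences are given 5′ to 3′ on the strand of the transcript in GRCh37, with TGT (UGU in the RNA), the core of CELF1 motifs, in capitals.
SNHG1, chr11:62619501-62619520, minus strand: gcTGTcaattTGTGTtgctg
SNHG5, chr6:86386841-86386860, minus strand: aaaccatccagaaaaaagct
SNHG7, chr9:139620561-139620580, minus strand: gagaatggtttatggcctga
SNHG8, chr4:119200921-119200940, plus strand: aaagtaatatttaaggtggt
SNHG12, chr1:28906281-28906300, minus strand: gcaTGTgggctagtttcaga
SNHG15, chr7:45022641-45022660, minus strand: aacaagggatatttaataaa
SNHG16, chr17:74560781-74560800, plus strand: tttaagatactaggatggat
SNHG29, chr17:16345281-16345300, plus strand: catgcagttaccatgaacta
GAS5, chr1:173833021-173833040, minus strand: catctggagTGTGTagTGTt
Of these 9 bins 3 held TGT, and the bins of SNHG1 and GAS5 were those with more than 1 copy. Among all bins listed in all 3 samples, TGT occurred in 35.8% of those of the host genes. In exons of other genes it occurred in 33.4% of such bins. The count of 3 in 9 is thus near the share elsewhere and does not mark these bins as CELF1 sites. The strongest bin of SNHG6, also not covered by a matching stretch, is described by its reads further on, and its sequence was not used here.

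In 4 of these genes the bin with the most IP reads had a sequence found at another locus as well. They are shown as the most heavily read stretch of each gene, and were picked after their values had been seen.
SNHG16, strongest bin, chr17:74559741-74559760: aatagtggtcagaaaatacc
GAS5, strongest bin, chr1:173833061-173833080: attaaaacagTGTctccaat
SNHG8, strongest bin, chr4:119200421-119200440: gcaaagcTGTcaccatttaa
SNHG15, strongest bin, chr7:45024981-45025000: aggttatagaaatttcagac
The GAS5 bin was exonic in 73 of the 75 transcripts that span it, whereas those of SNHG8 and SNHG15 were exonic in 3 of 15 and 4 of 14 transcripts.

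For each gene, IP and input reads of its listed bins were summed, 1 read was added, each sum was taken as a share of all listed reads of its kind, and log2 of IP share over input share was formed. A value of 0 means the same share of reads in IP and input. SNHG16 was the one gene of the 10 above 0 in all 3 samples, whereas 33.0% of the 11583 genes listed in all samples were. A further 5 genes, namely SNHG5, SNHG6, SNHG8, SNHG29 and GAS5, were below 0 in all 3 samples, and 41.1% of all genes were. The median over the 10 genes was -0.26, -1.16 and -0.85. The same medians were -0.01, -0.34 and -0.11 over all genes, and 0.44, 0.58 and 0.89 over the 756 lncRNA genes listed in all samples. The median of the 10 genes was thus below that of the lncRNA genes in each sample, whereas SNHG16 itself was above it. Of the 756 lncRNA genes, 389 were above 0 in all 3 samples.

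**Figure D1:**
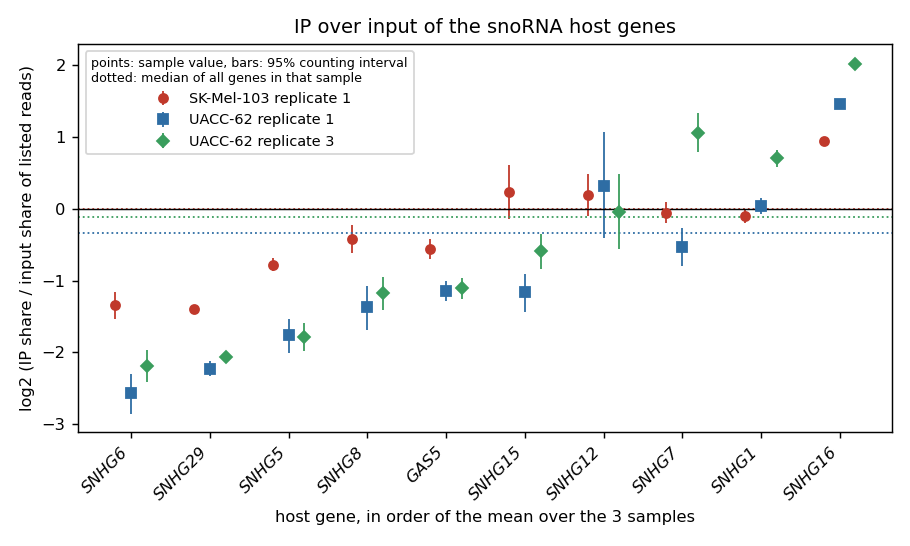
Log2 IP over input (vertical axis) of the 10 snoRNA host genes (horizontal axis) in SK-Mel-103 replicate 1 (circles), UACC-62 replicate 1 (squares) and UACC-62 replicate 3 (diamonds), with bars for the 95% Wilson interval of the counts and dotted lines for the median of all genes in each sample. SNHG16 lies between 0.94 and 2.01, and SNHG6 and SNHG29 lie between -2.57 and -1.35.

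SNHG16, which hosts SNORD1A, SNORD1B and SNORD1C, had 10456, 21698 and 45420 IP reads against 4193, 7092 and 6960 input reads. The log2 values were 0.94, 1.46 and 2.01 (UACC-62, 1.73 ± 0.39, SD, n = 2). The UACC-62 samples were both above SK-Mel-103. Of all genes, 80.0%, 88.9% and 91.6% lay below SNHG16 in these samples. The gene took 50.5%, 85.4% and 88.2% of the IP reads of the 10 genes, so that pooled counts over the genes mostly describe SNHG16.

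A bin with more than 30 IP reads is called a peak. Peaks were found in the same bin of all 3 samples in 8 of the 10 genes, and in 16.4% of all genes. The cut is on IP reads and not on IP over input. SNHG16 accounted for 93 of these common peaks, SNHG1 for 12 and SNHG29 for 9. SNHG5 and GAS5 had 2 each, SNHG6, SNHG7 and SNHG8 had 1 each, and SNHG12 and SNHG15 had none. In UACC-62, 168 bins were peaks in either replicate and 132 of them, 78.6%, in both (95% Wilson interval 71.8 to 84.1%). Without SNHG16 this was 31 of 60 bins, or 51.7% (39.3 to 63.8%), and both intervals cover counting error only and treat neighbouring bins as independent. Close to the cut, the lists held 4, 4 and 1 bins of these genes with 31 IP reads and 2, 1 and 2 bins with 30.

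The reads of SNHG16 came from 1 exon. The gene spans chr17:74553809-74667067 on the plus strand, and its exon block at chr17:74559201-74561439, 2239 nt long, held 96.6%, 98.4% and 97.3% of the IP reads. The log2 IP over input of this exon was 0.96, 1.48 and 2.01. The block of 464 nt upstream of it, at chr17:74557370-74557833, had 273, 270 and 1029 IP reads and log2 values of 0.42, 0.54 and 1.998. Both exons were thus above 0 in every sample.

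Along the long exon, divided into 4 equal segments, IP over input was lowest in the first segment in all 3 samples. There the log2 values were 0.73, 0.92 and 1.77. In the second segment they were 1.34, 1.98 and 2.24, in the segment after it 1.16, 1.90 and 2.39, and in the last 0.84, 1.46 and 1.97. The second segment was also the richest in G and U, at 60.5%, against 52.0% in the first, 51.3% in the next and 49.3% in the last. Copies of UGUUU or UGUGU numbered 4, 4, 1 and 4 from the first segment to the last, so they did not follow the values. In addition, 17 bins of the second segment and 9 of the next had a sequence found at over 20 other loci, as repeats of the Alu type have. After the values had been seen, the segments were read without these bins. The other 10 bins of the second segment had log2 values of 1.48, 1.92 and 2.35, and the other 18 bins of the next had 0.96, 1.86 and 2.37. The first segment, which has no such bins, thus was the lowest without them as well.

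**Figure D2:**
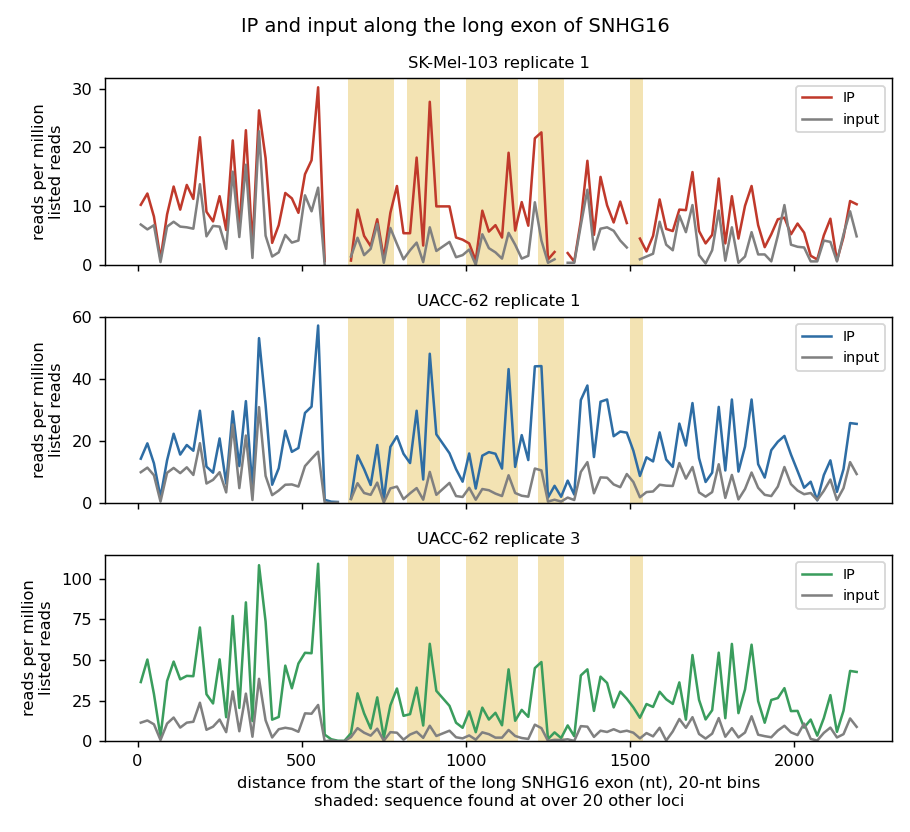
IP reads (coloured) and input reads (grey) in CPM of listed reads of their kind (vertical axis) in 20-nt bins along the 2239-nt exon of SNHG16 (horizontal axis, distance in nt from its start), one panel per sample, with gaps where a bin was not listed. IP lies above input over most of the exon, also outside the shaded bins whose sequence is found at over 20 other loci.

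Much of SNHG16 has a near copy elsewhere. Of its 133 listed bins, 109 lay in a stretch of at least 40 nt that matched another locus at 95% identity or more. A copy at chr9:105966410-105968831, inside the gene LINC01492, matched 2295 nt of SNHG16 in 9 ungapped stretches of at least 100 nt, with 98.7% identity. The listed bins at that copy held 180, 248 and 490 IP reads, or 1.72%, 1.14% and 1.08% of those of SNHG16. The bins of SNHG16 that no single matching stretch covered had 487, 931 and 1857 IP reads and log2 values of 0.85, 1.34 and 1.95. Over all bins these values were 0.94, 1.46 and 2.01. Most reads of the uncovered bins came from the long exon, in bins that lie between bins with a match. One is the bin at chr17:74560781-74560800, with 122, 258 and 440 IP reads. The values of the uncovered bins thus do not come from sequence clear of the copy. The strongest bin with a copy, at chr17:74559741-74559760, had 331, 648 and 1577 IP reads against 111, 168 and 199 input reads.

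SNHG1, once known as the host gene of U22, contains 9 snoRNA genes in the RefSeq annotation. It had 1826, 1351 and 2153 IP reads and 1508, 1183 and 816 input reads. The log2 values were -0.10, 0.03 and 0.70, so the UACC-62 replicates differed by more from each other than replicate 1 did from SK-Mel-103. Its strongest bin over the 3 samples, with 3 copies of TGT, had 109, 144 and 172 IP reads against 80, 95 and 90 input reads. That bin lay in an exon of all 67 transcripts that span it. In SK-Mel-103 a bin that most transcripts splice out had slightly more, with 111 IP reads against 24 input reads.

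GAS5, the host of 11 RefSeq snoRNA genes, was below 0 in every sample. It had 776, 565 and 651 IP reads and 882, 1121 and 865 input reads, and log2 values of -0.56, -1.14 and -1.11 (UACC-62, -1.13 ± 0.03, SD, n = 2). Its strongest bin had 66, 49 and 62 IP reads against 136, 116 and 140 input reads, and is 1 of 19 GAS5 bins, of 104, that match another locus. The bins without such a match had log2 values of -0.23, -0.83 and -0.46. The GAS5 bin with 3 copies of TGT had 45, 24 and 34 IP reads against 34, 30 and 42 input reads, and was exonic in 1 of the 3 transcripts that span it.

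SNHG29, which hosts SNORD49A, SNORD49B and SNORD65, had the most input reads of the 10 genes in SK-Mel-103. Its 4055, 942 and 1650 IP reads stood against 8274, 3954 and 4243 input reads. The log2 values were -1.40, -2.23 and -2.06 (UACC-62, -2.14 ± 0.12, SD, n = 2), and 4.82%, 5.05% and 3.33% of all genes lay lower. SNHG29 nonetheless had 9 common peaks, so that bins with many IP reads occurred with IP far below input.

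SNHG6, the host of SNORD87 on chromosome 8, was the lowest of the 10 genes in both UACC-62 replicates. It had 349, 120 and 221 IP reads against 685, 642 and 621 input reads, and log2 values of -1.35, -2.57 and -2.18. Its strongest bin, at chr8:67834221-67834240, had 92, 31 and 84 IP reads against 223, 248 and 236 input reads. It was exonic in all 6 transcripts that span it and was the one common peak of the gene.

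SNHG5, the host of SNORD50A and SNORD50B, was listed in 82 bins in SK-Mel-103, but in 10 and 11 bins in the UACC-62 replicates. It had 1572, 187 and 307 IP reads and 2080, 571 and 652 input reads. The log2 values were -0.78, -1.76 and -1.78 (UACC-62, -1.77 ± 0.01, SD, n = 2). Of the 82 bins, 62 lay in sequence that more than 50% of the spanning transcripts splice out, against 1 and 2 bins in the UACC-62 lists. In the bins that are exonic in at least 50% of the transcripts, SNHG5 had 194, 55.4 and 72.8 CPM of input reads. The strongest bin had 380, 63 and 116 IP reads against 710, 273 and 299 input reads. Moreover, 11 of the 83 bins of the gene matched another locus, and 13 of the 82 in SK-Mel-103 lay in exons of a second gene.

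SNHG7, SNHG8 and SNHG15 each host snoRNAs of the H/ACA box class in RefSeq (SNORA17A and SNORA17B, SNORA24, and SNORA9), which guide pseudouridylation. In each of them, the bin with the most IP reads over the 3 samples lay in sequence that most transcripts splice out. The GENCODE annotation used here holds none of these snoRNAs in GRCh37, so whether the bins overlap them was not tested.

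In SNHG7 the bin at chr9:139620561-139620580 held 387, 106 and 343 IP reads against 60, 79 and 41 input reads. This was 46.1%, 50.2% and 72.1% of the IP reads of the gene, and the bin was exonic in 1 of 10 transcripts. The log2 IP over input of SNHG7 was -0.06, -0.53 and 1.05, with a wide spread in UACC-62 (0.26 ± 1.12, SD, n = 2). Without the bin, the values were -0.81, -1.04 and -0.29, below 0 in every sample. The mean over the 3 samples was 0.15, and -0.29 without UACC-62 replicate 3. On the other hand, 21 of the 43 bins of SNHG7 match another locus, and without these the values were 1.2005, -0.10 and 1.98, with a mean of 1.02. The strong bin is among the bins that were kept there, so the sign of SNHG7 in SK-Mel-103 depended on which bins were counted.

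In SNHG8 the bin at chr4:119200421-119200440 held 120, 31 and 94 IP reads against 49, 36 and 22 input reads. This was 27.3%, 25.8% and 36.7% of the IP reads of the gene. The gene as a whole had 440, 120 and 256 IP reads against 455, 280 and 358 input reads, and log2 values of -0.42, -1.37 and -1.18. Without the bin these were -0.72, -1.60 and -1.75. The strongest bin that no matching stretch covered lay in an exon of all 15 transcripts. It had 68, 27 and 41 IP reads against 101, 89 and 125 input reads, below its input share in every sample.

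In SNHG15 the bin at chr7:45024981-45025000 held 30, 26 and 51 IP reads against 1, 8 and 2 input reads, with a log2 IP over input of 3.58, 1.43 and 3.42. The gene had 143, 166 and 287 IP reads against 94, 335 and 267 input reads. Its log2 values were 0.23, -1.17 and -0.59, and -0.10, -1.38 and -0.86 without the bin. The bin held 21.0%, 15.7% and 17.8% of the IP reads of SNHG15. The bins of SNHG8 and SNHG15 each match 1 other locus. Such shares were not particular to these genes. The strongest bin held 24.2%, 33.7% and 37.8% of the IP reads in SNHG5, and 26.4%, 25.8% and 38.0% in SNHG6.

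**Figure D3:**
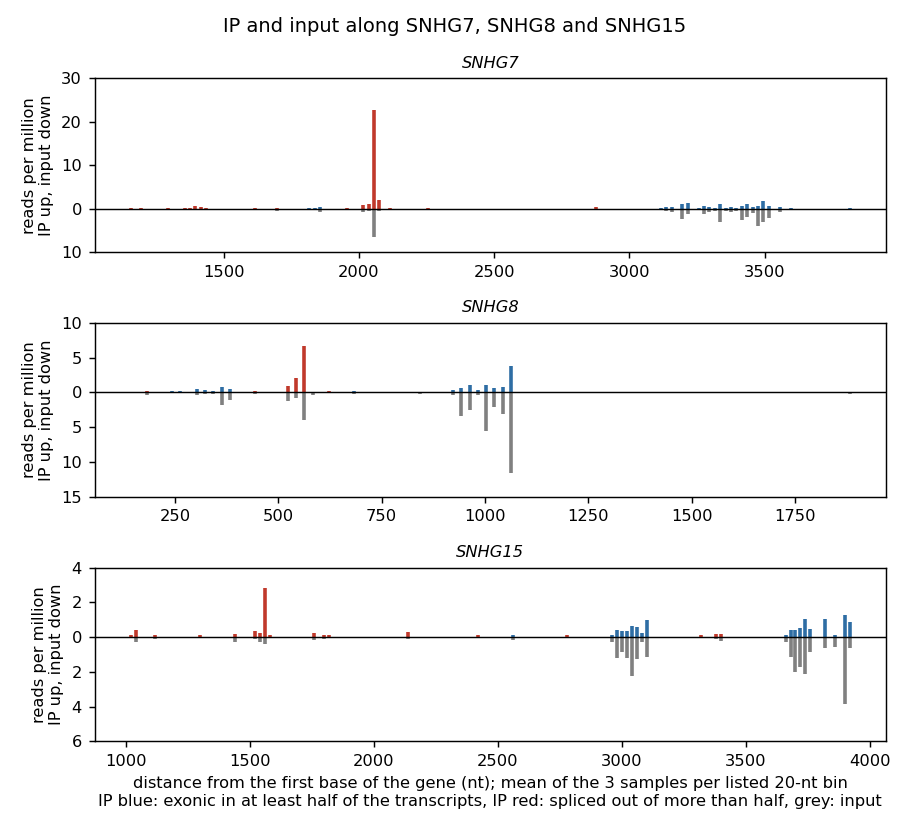
IP reads (upwards) and input reads (downwards) in CPM of listed reads of their kind, as the mean of the 3 samples (vertical axis), in the listed 20-nt bins of SNHG7, SNHG8 and SNHG15 by distance from the first base of the gene (horizontal axis, nt). A bin not listed in a sample counts as 0, blue bins are exonic in at least 50% of the spanning transcripts and red bins are not, and in each gene the tallest IP bar is a single red bin.

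SNHG12, which carries snoRNAs of both box classes, was the gene with the fewest reads in UACC-62. It had 241, 35 and 74 IP reads and 163, 25 and 47 input reads, and no bin of it passed 30 IP reads. Its log2 values were 0.19, 0.31 and -0.05. The 95% Wilson intervals were wide at this depth, at -0.10 to 0.48, -0.40 to 1.06 and -0.57 to 0.48. They cover counting error only and are no test against 0, since bins were listed for passing against their input. Its strongest bin had 18, 6 and 7 IP reads against 0, 0 and 2 input reads and was exonic in 4 of 16 transcripts.

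Bins exonic in at least 50% of the transcripts that span them were then compared with bins that more than 50% splice out. In 6 of the 9 genes with both kinds in all samples, namely SNHG5, SNHG7, SNHG8, SNHG15, SNHG29 and GAS5, the spliced-out bins had the higher log2 IP over input in all 3 samples. The same held for 64.6% of the 2206 genes with both kinds, so the direction was as common elsewhere. The median difference was 0.86, 1.18 and 1.85 for the 9 genes, and 0.83, 1.18 and 1.17 for all 2206. SNHG16 went the other way in all 3 samples, with differences of -0.86, -1.84 and -1.01, as did 203 genes in all. Some of these differences rest on few reads. The spliced-out bins of SNHG16 held 39, 35 and 67 IP reads, and those of SNHG5 held 9 and 15 in the UACC-62 replicates. The median of 1.85 in UACC-62 replicate 3 was the value of SNHG12, whose exonic bins held 13 IP reads there. In SNHG1 the difference was 0.11, -0.18 and 0.10. For SNHG6 no spliced-out bin was listed in UACC-62 replicate 3. A bin is listed only if it passed against its own input, and the part of this selection in the difference was not tested.

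**Figure D4:**
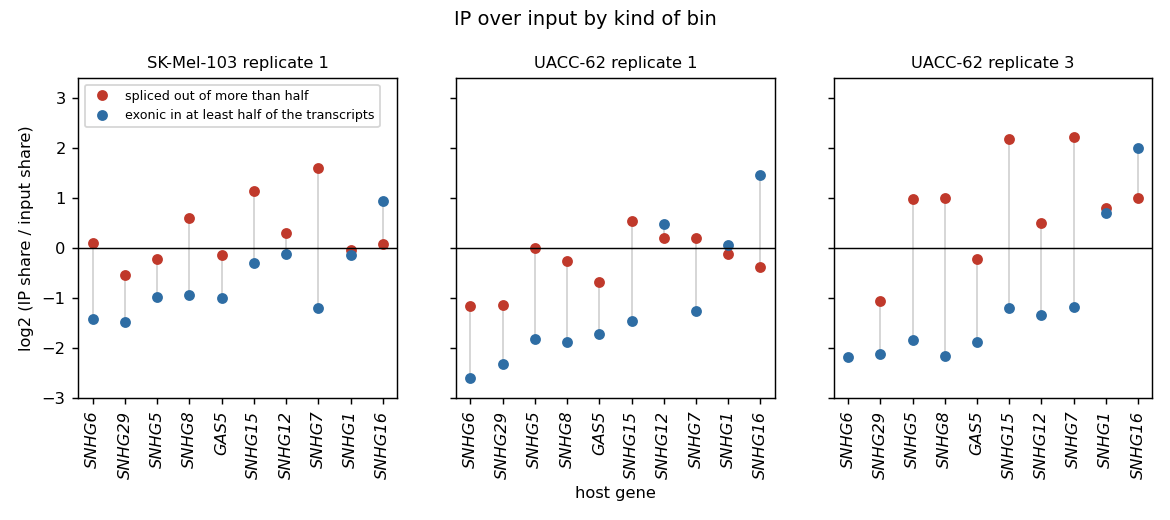
Log2 IP over input (vertical axis) of each snoRNA host gene (horizontal axis) in bins exonic in at least 50% of the transcripts (blue) and in bins spliced out of more than 50% (red), one panel per sample. Red lies above blue in all 3 panels for 6 genes, and SNHG16 has blue above red in each panel. The red points of SNHG16 rest on 39, 35 and 67 IP reads.

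To compare GU-rich sequence in the listed bins of these genes with that in listed bins of other genes, UGUUU and UGUGU were searched on the strand of the transcript. Exon sequence that was not listed was not searched, so whether GU-rich sequence marks listed bins was not tested. Of the 268 bins of these genes listed in all 3 samples, 17 held either motif, 6.34%, against 7.33% of 261594 such bins in exons of other genes. With 40 nt added on either side the shares were 36.2% and 36.2%. UGU alone occurred in 35.8% of the bins of these genes and in 33.4% of the others, and the mean content of G and U was 52.7% and 51.3%. SNHG16 held a motif in 7 of 114 bins, GAS5 in 3 of 28, SNHG1 in 2 of 40 and SNHG29 in 2 of 38. Among bins with more than 30 IP reads in all 3 samples, 7 of 121 bins of these genes held a motif, 5.79%, against 9.83% of 29199 in other exons, and with the flanks 38.0% against 43.97%. Without SNHG16 the shares in the host genes were 3.57% of 28 bins and 46.4% with the flanks.

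The lines were compared by edgeR's quasi-likelihood test of the interaction between IP and cell line, with each IP paired to its own input. SK-Mel-103 has 1 pair, which is assumed to vary like the UACC-62 pairs. Since the 10 genes were chosen from IP over input in these lists, their differences are given as values with a standard error, and nothing is read from the count of those that passed. None of the 10 genes passed an adjusted p of 0.05, while 3.61% of 12092 genes did, 321 of them with a higher and 115 with a lower IP over input in SK-Mel-103. Differences are on the log2 scale, as SK-Mel-103 minus UACC-62. The largest in edgeR were 1.11 for SNHG15 (SE 0.37), 1.03 for SNHG6 (SE 0.35) and 0.997 for SNHG5 (SE 0.38). In DESeq2 these were 1.11 (SE 0.57), 1.03 (SE 0.47) and 0.998 (SE 0.41). SNHG16 was the lowest, at -0.79 in edgeR (SE 0.44) and in DESeq2 (SE 0.40). The difference was positive in 7 of the 10 genes, at a median of 0.65 over them and 0.24 over all genes tested.

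The scaling matters for this comparison. TMM factors moved the median over all genes from 0.24 to -0.06 and the calls from 73.6% to 32.8% higher in SK-Mel-103. The difference of SNHG16 was then -1.09 (SE 0.36), with an adjusted p in edgeR of 0.0407, against 0.328 with the list totals, 0.391 in DESeq2 and 0.999961 without the pairing. No difference between the lines is read from it, since 1 of these settings passed and the others did not. SNHG12 changed sign from 0.08 to -0.20, passing in neither fit. Set against the median of all genes in the fit with list totals, the difference of SNHG16 was -1.03 and that of SNHG15 0.87. Without the pairing, none of the 12092 genes passed in edgeR, and 180 had an unadjusted p under 0.05.

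**Figure D5:**
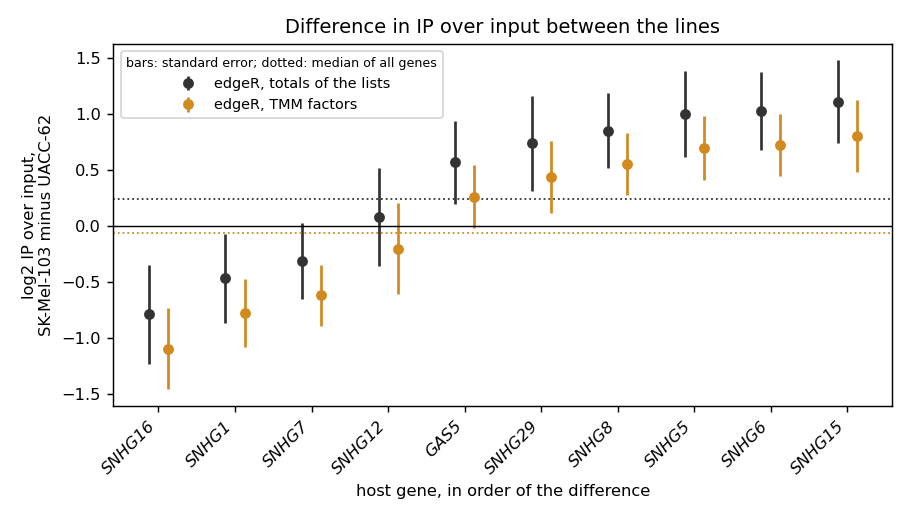
Difference in log2 IP over input, SK-Mel-103 minus UACC-62 (vertical axis), of the 10 genes (horizontal axis) in edgeR with the list totals (black) and with TMM factors (orange), with bars for the standard error and dotted lines for the median of all genes. SNHG16 is lowest in both, at -0.79 and -1.09, and SNHG15 is highest, at 1.11 with the list totals.

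Other snoRNA hosts were set beside these genes. Of 17 further lncRNA hosts, 12 were listed in all 3 samples, with medians of 0.34, -0.24 and 0.58, and 3 were above 0 in all. By mean value they ran from SNHG14 with 1.59, 2.16 and 2.36 to ZFAS1 with -0.88, -2.19 and -1.84. All 32 protein-coding hosts were listed, mostly genes of ribosomal proteins and translation factors, and 31 were below 0 in all samples, with medians of -1.65, -2.63 and -2.27. The exception was TAF1D, with -0.37, -0.60 and 0.51. SNHG6 and SNHG29 thus had values near those of the protein-coding hosts, while SNHG16 was above every one of them in each sample.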

How the data were processed

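CELF1 RIP-Seq of 3 IP samples was analysed, with the input samples taken from a column of the same lists. The authors aligned the reads to GRCh37 (TopHat2 2.0.4 and Bowtie 0.12.7, per the labels) and ran Piranha in bins of 20 nt. The lists deposited by the authors give IP read counts, unscaled, for bins that passed. A p-value per bin and the input as a ratio, with 0.01 for none, were also deposited by the authors. Input reads were recovered as multiples of the smallest step. Depth was 10958459, 11333805 and 14436573 reads for IP and 8453517, 10161917 and 8900292 for input, within the listed bins. Input outside them is unknown, so every value is conditional on passing.

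The members and lists of genes were chosen with earlier results of these data known. Bins were assigned by their centre to GENCODE version 44 exons (GRCh37) on the reversed strand, and those in exons of several genes were counted for each. Shared sequence was found with blastn 2.17.0 (at least 40 nt at 95% identity, ungapped), and a bin counted as shared if a single stretch covered it. RefSeq names come from GRCh38.p14, without coordinates. Gene sums with at least 60 reads were tested in edgeR 4.0.16 (list totals as library sizes, pair as block, Benjamini-Hochberg), with DESeq2 1.42.0 as an alternative. The pair comes from the labels, which name each IP's own input. All 10 members are named, and of other hosts the extremes by mean value with at least 100 IP reads. CPM are computed on these totals, and peaks follow the read filter of the methods. Alternatives covered pseudocount, read filter, scaling, shared, ambiguous and snoRNA bins, strand and replicates. The annotation placed 3 bins of the members over a snoRNA, all in GAS5, so the snoRNA alternative could change the values of GAS5 only.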

Additional observations from a re-analysis of the deposited data

How the results depend on the processing

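SNHG16 was above 0 in all 3 samples under every alternative that kept the reversed strand. Leaving out bins over a snoRNA or in exons of several genes removed no SNHG16 bin, so these alternatives could not change its values. The median over the 10 genes was -0.26 for SK-Mel-103 and -1.003 for the UACC-62 mean. It became -0.51 in SK-Mel-103 with bins of more than 30 IP reads (8 genes), 0.11 and -0.58 without division by the totals, -0.78 in UACC-62 centred on all genes, and 0.45 and 1.36 on the listed strand (2 genes). Chosen after the data were seen, leaving out each gene's strongest bin gave -0.51 in SK-Mel-103, and bins exonic in at least 50% of the transcripts gave -0.96 and -1.57. Genes above 0 in all samples were 1, and 2 with more than 30 reads, 3 undivided and 2 centred. Leaving out either UACC-62 replicate gave 1 to 2 genes, and medians of -1.16 to -0.85.

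Genes with a common peak fell from 8 to 6 without bins of shared sequence, to 3 at more than 100 reads and to 0 on the listed strand. Means that changed sign were those of SNHG12 (-0.10 without bins lacking input, -0.0032 without its strongest bin, -0.33 in mostly exonic bins), SNHG7 (-0.71 and -1.22 in the last pair) and, with either UACC-62 replicate left out, SNHG1 (-0.0323 to 0.30) and SNHG7 (-0.29 to 0.50), both below 0 without replicate 3.

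Calls between the lines were 436 of 12092 genes, 821 with TMM factors (1 of the 10 genes, SNHG16 at -1.09; SNHG12 at -0.20), 42 with DESeq2, 0 with no replicate block and, added after the data were seen, 238 of 7920 in bins listed in all samples (SNHG7 at 0.0905). With either UACC-62 replicate left out, the difference as a value without a test was -1.11 to 0.48 for SNHG7 and -0.13 to 0.24 for SNHG12, each with the sign turned without replicate 3. The motif share was 6.34%, and 36.2% with the added flanks. The cause of these changes was not tested. At under 100 IP reads in a sample, as for SNHG12, counting error limits every statement.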
